A study of Mus musculus with 10 samples.

Results

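The Schlafen family is a cluster of genes on mouse chromosome 11. The members were taken by gene symbol from the table of gene counts of 10 CT26 tumors, which held Slfn1, Slfn2, Slfn3, Slfn4, Slfn5, Slfn8 and Slfn9. These are 7 of the 36009 genes in the table, and all 7 passed the filter on low counts that left 16041 genes for testing. PolyA RNA was sequenced from CT26 tumors grown under the skin of untreated, wild-type, female BALB/c mice. CT26 is an established mouse colorectal carcinoma line. Each library came from the part of a tumor that surgeons removed before a hydrogel carrying poly(I:C), a synthetic double-stranded RNA, was laid on the tumor that remained. Responders were the 6 mice whose tumors then regressed completely, and non-responders were the 4 mice whose tumors showed no delay in growth. The comparison addressed what differed between the tumors before treatment. It covers 1 cell line implanted in 1 mouse strain, and a bulk library mixes carcinoma cells with the host cells in the piece.

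Libraries held between 29065126 and 38042544 estimated counts in responders and between 23374649 and 32986456 in non-responders. The deepest and the shallowest library thus lay in different groups. Levels are in CPM, which scales the count of a gene to the TMM-normalized total of its library. Several markers of colorectal epithelium were at the limit of detection. Epcam had 3 to 19 counts per tumor, and Krt8, Krt18, Krt19 and Vil1 were listed at 0 in at least 1 tumor, while Krt20 had 454 to 1865 counts and Cdh1 78.6 to 232.9. The 8 epithelial markers summed to 17.5 to 42.1 CPM in responders and 40.3 to 84.8 CPM in non-responders, and 0 of the 4 that were tested passed by edgeR, with 3 at an unadjusted p under 0.05 and 1 called by DESeq2. Of all 16041 genes tested, 29.1% had an unadjusted p under 0.05 and DESeq2 called 2602.

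Schlafen genes were named for the growth arrest that the founding member caused in thymocytes. Many are transcribed in response to type I interferon (IFN), which acts on its target genes through a DNA element called the interferon-stimulated response element (ISRE). The mouse proteins fall into a short group with Slfn1 and Slfn2, an intermediate group with Slfn3 and Slfn4, and a long group with Slfn5, Slfn8 and Slfn9 whose C-terminal part resembles a helicase. Slfn2 keeps T cells and monocytes quiescent and shields transfer RNA from the ribonuclease angiogenin, and members of the family bind or cut transfer RNA.

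The 7 members sit in 1 stretch of chromosome 11 on GRCm38. Slfn5 (ENSMUSG00000054404, 82951349 to 82964840, forward strand) lies at one end. It is followed on the reverse strand by Slfn9 (ENSMUSG00000069793, 82978390 to 82991830), Slfn8 (ENSMUSG00000035208, 83002158 to 83020810) and the pseudogene Slfn10-ps. The short and intermediate members come next on the forward strand, with Slfn2 (ENSMUSG00000072620, 83065112 to 83070678), Slfn1 (ENSMUSG00000078763, 83116849 to 83122670), Slfn4 (ENSMUSG00000000204, 83175186 to 83190216) and Slfn3 (ENSMUSG00000018986, 83191330 to 83215154). Slfn14 closes the cluster.

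The bases just upstream of the RefSeq start sites are printed here to show that the long members differ from the others in the letters they hold. RefSeq on GRCm38.p6 gave a start for all 7 members. The first 3 sequences belong to the long members, and capitals mark the ISRE letters, GAAA followed by any 2 bases and GAAA again, searched on both strands of the 250 bases upstream of each start.
Slfn5, chr11:82951942-82952101, forward strand: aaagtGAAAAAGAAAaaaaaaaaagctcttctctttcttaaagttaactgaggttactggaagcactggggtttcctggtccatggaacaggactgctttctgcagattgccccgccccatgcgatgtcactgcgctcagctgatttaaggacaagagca
Slfn8, chr11:83020811-83020910, reverse strand: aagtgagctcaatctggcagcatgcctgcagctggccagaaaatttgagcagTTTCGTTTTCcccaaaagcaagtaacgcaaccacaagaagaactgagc
Slfn9, chr11:82991831-82991930, reverse strand: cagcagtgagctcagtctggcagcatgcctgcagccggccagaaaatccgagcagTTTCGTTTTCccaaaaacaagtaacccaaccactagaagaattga

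The ISRE letters were found in all 3 long members, starting 155 bases upstream of the RefSeq start in Slfn5, 48 in Slfn8 and 45 in Slfn9. For Slfn5 the RefSeq start lies inside the gene interval given above (82951349 to 82964840, from GENCODE). The bases printed for Slfn5 are therefore within that interval and not upstream of it, and its match runs into a stretch of A. A second RefSeq start of Slfn8 placed the same match at 136 bases. In Slfn8 and Slfn9 the match lay on the opposite strand and in the same surroundings, since the 100 bases shown were identical at 89 of 103 aligned positions (86.4%). None of the 4 short and intermediate members held the letters in its 250 bases. Of all 32851 RefSeq windows of this length, 2.98% held them.

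The short and intermediate members shared another run of letters, CCAGGAAGT, which was noticed in the printed sequences and then searched on both strands. Capitals mark it, on the opposite strand, in each of the 4.
Slfn1, chr11:83116720-83116819, forward strand: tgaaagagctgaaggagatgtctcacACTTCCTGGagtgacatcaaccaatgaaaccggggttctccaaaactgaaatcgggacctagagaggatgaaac
Slfn2, chr11:83065012-83065111, forward strand: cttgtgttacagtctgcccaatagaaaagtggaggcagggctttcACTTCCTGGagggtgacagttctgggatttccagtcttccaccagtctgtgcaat
Slfn4, chr11:83175086-83175185, forward strand: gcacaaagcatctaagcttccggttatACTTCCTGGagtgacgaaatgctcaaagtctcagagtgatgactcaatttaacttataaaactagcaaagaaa
Slfn3, chr11:83191230-83191329, forward strand: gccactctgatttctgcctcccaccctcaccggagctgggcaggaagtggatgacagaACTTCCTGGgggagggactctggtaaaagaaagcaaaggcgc

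The run began 74 bases upstream of the start in Slfn1, 55 in Slfn2, 73 in Slfn4 and 42 in Slfn3, and 0.7% of all windows held it. Because the run was picked from these same sequences, its presence in them is no test against that share. The run was in none of the 3 long members. The 100 bases shown were otherwise less alike than those of Slfn8 and Slfn9, with 50% of aligned positions identical between Slfn1 and Slfn2 and 51.3% between Slfn3 and Slfn4. These matches describe the letters, and binding of any factor was not measured.

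Because the members are related in sequence, the share of their 31-base words that another annotated gene also holds was counted, as 31 bases is the word length by which Kallisto assigns reads by default. That share was 1.96% for Slfn1, 10.8% for Slfn2, 13.4% for Slfn5, 20.9% for Slfn4, 24.6% for Slfn9, 27.3% for Slfn8 and 30.9% for Slfn3. Slfn8 shared 19.1% of its words with Slfn9 and 18.7% with Slfn10-ps, and Slfn3 shared 15.1% with Slfn4. Slfn5 shared most with Slfn5os (7.99%), an antisense gene that overlaps it, and the strand setting of the counting is not given in the sources used here. Stretches of 150 bases, the read length, with no word of their own made up at most 2.31% of the longest transcript of any member other than Slfn5, where they made up 6.74%.

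Responder tumors held more RNA of Slfn1, Slfn2 and Slfn5 than non-responder tumors, by 1.45-fold to 1.66-fold. Slfn8 had an estimate of the same size that did not pass the test, and the estimates of Slfn3, Slfn4 and Slfn9 were closer to 0. By edgeR 3 of the 7 members passed an adjusted p of 0.05, each of them higher in responders. Over all genes tested, 8.06% passed, with 4.71% higher and 3.35% lower in responders. An unadjusted p under 0.05 was reached by 4 of 7 members and by 29.1% of all genes. For the 3 members that passed, the groups did not overlap, as was so for 5.84% of all genes with responders higher and for 10.4% in either direction. The median log2 fold change of the 7 members was 0.54, against -0.0086 over all genes.

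Slfn2 was at 106.8, 93.6, 95.6, 88.0, 121.7 and 84.0 CPM in responders 1 to 6 and at 53.4, 81.3, 72.1 and 64.1 CPM in non-responders 1 to 4. The lowest responder was above the highest non-responder by a few CPM, responder 5 was highest and non-responder 1 lowest. The means were 98.3 ± 13.9 CPM (SD, n = 6) and 67.7 ± 11.9 CPM (SD, n = 4). The log2 fold change was 0.54 with an SE of 0.13 (edgeR adjusted p = 0.0345).

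Slfn5, a long member that resides in the nucleus, was at 79.4, 74.6, 87.4, 62.0, 89.5 and 72.0 CPM in responders 1 to 6 and at 39.1, 61.4, 58.1 and 50.7 CPM in non-responders 1 to 4. The groups were separate by a narrow margin, between responder 4 and non-responder 2. The means were 77.5 ± 10.2 CPM (SD, n = 6) and 52.3 ± 9.89 CPM (SD, n = 4). The log2 fold change was 0.57 with an SE of 0.13 (edgeR adjusted p = 0.0334).

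Slfn1, the founding member, was the least abundant in CPM, with 84.8 to 396.3 counts per tumor. It was at 11.2, 8.77, 9.53, 7.43, 11.1 and 8.45 CPM in responders 1 to 6 and at 3.43, 6.27, 6.59 and 6.30 CPM in non-responders 1 to 4. Non-responder 1 stood below the other 3 non-responders, which lay close together and below every responder. The means were 9.41 ± 1.498 CPM (SD, n = 6) and 5.65 ± 1.49 CPM (SD, n = 4). The log2 fold change was 0.73 with an SE of 0.18 (edgeR adjusted p = 0.0394).

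The direction of these 3 differences held in all 10 fits that left out 1 tumor, and their side of the threshold did not. Without any one of responders 1, 2, 3 and 5 or non-responders 1, 3 and 4, the adjusted p was between 0.0525 and 0.0912 for Slfn2, between 0.0544 and 0.0880 for Slfn5 and between 0.0586 and 0.0856 for Slfn1, with log2 fold changes of 0.45 to 0.57, 0.46 to 0.62 and 0.56 to 0.81. Without responder 6 the adjusted p of Slfn1 was 0.0523, and Slfn2 and Slfn5 passed. The count over all genes moved with them, from 1293 to between 0 and 553 in those 7 fits.

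**Figure D1:**
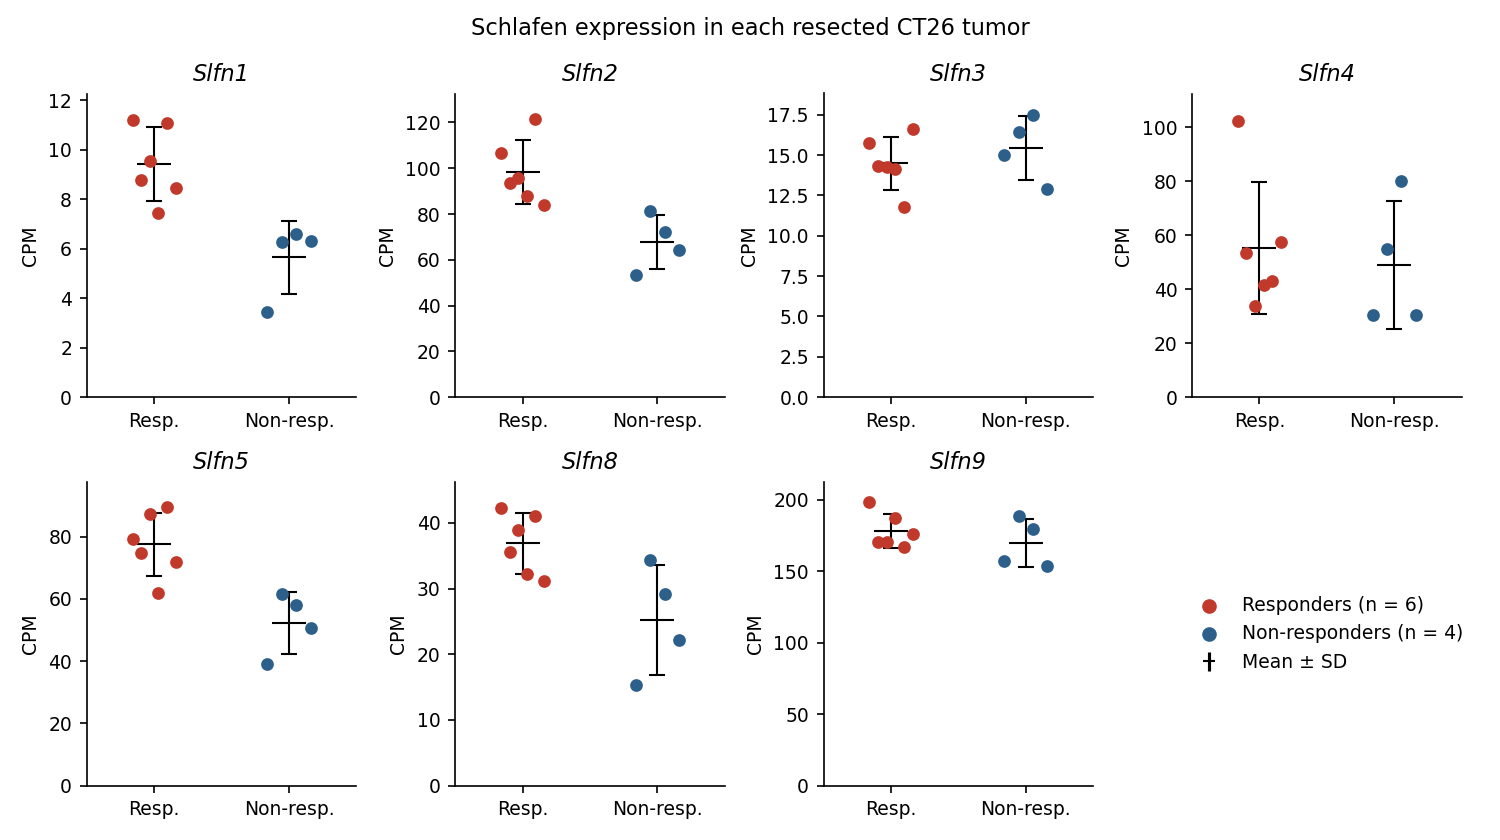
Expression of the 7 Schlafen members in each tumor, in CPM on linear axes that start at 0, for 6 responders (red) and 4 non-responders (blue). Horizontal bars are means and whiskers are SD. The groups do not overlap for Slfn1, Slfn2 and Slfn5, and they overlap for Slfn3, Slfn4, Slfn8 and Slfn9.

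Slfn8, a long member close in sequence to Slfn9, was at 42.2, 35.6, 38.9, 32.3, 41.1 and 31.2 CPM in responders 1 to 6 and at 15.3, 34.3, 29.2 and 22.1 CPM in non-responders 1 to 4. Of the responders, 4 of 6 were above every non-responder, and non-responder 2 lay among the responders. The means were 36.9 ± 4.60 CPM (SD, n = 6) and 25.2 ± 8.32 CPM (SD, n = 4). The log2 fold change was 0.55 (SE 0.19, 95% interval 0.14 to 0.96, unadjusted p = 0.0135, edgeR adjusted p = 0.0848). Slfn8 passed by DESeq2 (adjusted p = 0.0262) and by edgeR when non-responder 2 was left out (log2 fold change 0.73, adjusted p = 0.0319). Its interval therefore spans differences as large as those of the members that passed.

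Slfn9 had the highest CPM and the least spread of the family. It ranged from 167.0 to 198.0 CPM in responders, with a median of 173.1, and was at 157.0, 188.6, 179.6 and 153.6 CPM in non-responders 1 to 4. The groups overlapped over most of their range, and the highest tumor of the 10 was only 1.29 times the lowest. Its log2 fold change was 0.070 (SE 0.070, 95% interval -0.085 to 0.22, edgeR adjusted p = 0.545). The upper end of this interval lay below the estimates of Slfn1, Slfn2, Slfn5 and Slfn8. The intervals of Slfn9 and Slfn8 (0.14 to 0.96) nevertheless overlapped.

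Slfn3, an intermediate member, ranged from 11.8 to 16.6 CPM in responders, with a median of 14.3, and was at 14.98, 16.5, 17.5 and 12.9 CPM in non-responders 1 to 4. Responder 5 was lowest and non-responder 3 highest, and the values of the groups were interleaved. Its log2 fold change was -0.091 (SE 0.11, 95% interval -0.32 to 0.14, edgeR adjusted p = 0.606).

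Slfn4, the other intermediate member, is known from activated macrophages and other myeloid cells. It varied most between tumors, at 102.2, 53.3, 33.8, 41.6, 43.2 and 57.5 CPM in responders 1 to 6 and at 30.5, 55.0, 80.2 and 30.5 CPM in non-responders 1 to 4. Responder 1 and non-responder 3 were far above the others, 1 tumor of each group. The log2 fold change was 0.18 (SE 0.34, edgeR adjusted p = 0.775), and it became -0.092 without responder 1. Its 95% interval, -0.57 to 0.93, leaves differences of either sign and includes a difference of the size seen in Slfn2. The coefficient of variation over the 10 tumors was 43.7% for Slfn4, against 8.05% for Slfn9, 11.8% for Slfn3 and 23.3% to 30.3% for the other 4 members.

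**Figure D2:**
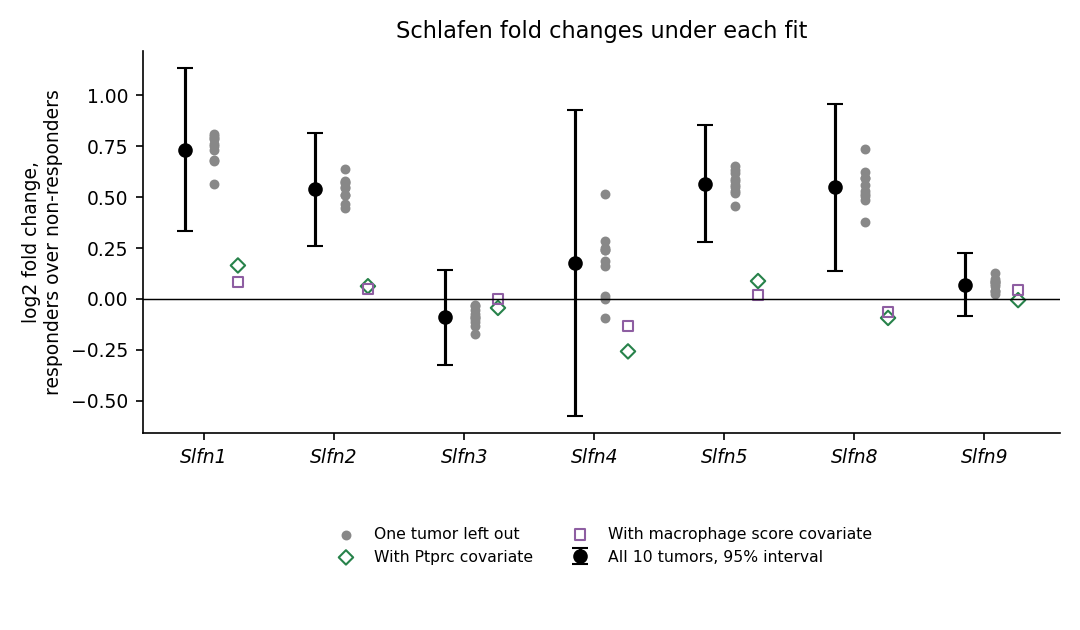
Log2 fold change of each member, responders over non-responders. Black points with whiskers are the edgeR estimate over 10 tumors with its 95% interval, grey points are the same fit with 1 tumor left out, and open symbols are fits with the log2 CPM of Ptprc (diamonds) or the mean log2 CPM of 9 macrophage markers (squares) as a covariate. With all 10 tumors, Slfn1, Slfn2, Slfn5 and Slfn8 lie between 0.54 and 0.73, and with either covariate all 7 members lie between -0.26 and 0.16.

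Whether members differed from each other between the groups was tested on the log2 ratio of each pair within a tumor. Library scaling cancels in this ratio except in the small prior count, scaled to library size, that was added before taking logs. All 21 pairs were compared, a choice made after the values of the members had been seen, with an exact permutation test, two-sided, that ran through all 210 splits of the tumors and cannot give a p below 0.00476. Of the pairs, 7 had an adjusted p under 0.05 over the 21. A ratio difference restates the fold changes of its members in the same tumors, so it is not separate support for them. The ratio of Slfn1 to Slfn3 was -0.091 to -0.97 on the log2 scale in responders and -1.03 to -2.10 in non-responders, with no overlap. The difference was 0.85 (exact permutation p = 0.00476, adjusted p = 0.04).

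Slfn2 also differed from both Slfn3 and Slfn9, called the flatter set here because of their own fold changes. Its log2 ratio to Slfn9 was -0.87 ± 0.23 (SD) over 6 responders and -1.34 ± 0.15 (SD) over 4 non-responders, with the groups apart between -1.09 and -1.21 (difference 0.47, exact permutation p = 0.00952, adjusted p = 0.04). Its ratio to Slfn3 differed by 0.63 (exact permutation p = 0.00952, adjusted p = 0.04). Slfn5 behaved alike, with differences of 0.50 to Slfn9 (exact permutation p = 0.0143, adjusted p = 0.0429) and, as the ratio of Slfn3 to Slfn5, -0.67 (exact permutation p = 0.00952, adjusted p = 0.04). The groups were separate for both, although for Slfn5 and Slfn9 only by -1.59 in responder 4 against -1.60 in non-responder 4.

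The remaining 2 of the 7 pairs were Slfn1 with Slfn9 (difference 0.69, exact permutation p = 0.00952, adjusted p = 0.04) and Slfn3 with Slfn8 (difference -0.69, exact permutation p = 0.0143, adjusted p = 0.0429), and in both the groups overlapped. Slfn8 and Slfn9 differed by 0.53 (exact permutation p = 0.0190), which gave an adjusted p of 0.05, at the threshold and not under it. Leaving out 1 tumor at a time kept the unadjusted p at 0.0476 or less for 6 of these 8 pairs. Without non-responder 1, the ratio of Slfn3 to Slfn8 differed by -0.49 and that of Slfn8 to Slfn9 by 0.35, and the highest p over the 10 omissions was 0.0595 for both pairs.

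Within the set of Slfn1, Slfn2, Slfn5 and Slfn8, which was grouped by fold change in these tumors, no ratio differed past the threshold. The 6 differences ran from -0.058 to 0.22, with adjusted p from 0.21 to 0.81. The log2 ratio of Slfn2 to Slfn5 was 0.34 ± 0.14 (SD) over 6 responders and 0.38 ± 0.063 (SD) over 4 non-responders. Slfn3 and Slfn9 gave a ratio difference of -0.16 (exact permutation p = 0.0810, adjusted p = 0.189). The 6 pairs with Slfn4 had adjusted p from 0.242 to 0.735. Since a test that misses the threshold does not show likeness, the spread of these ratios is the measure of how far such pairs could differ.

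**Figure D3:**
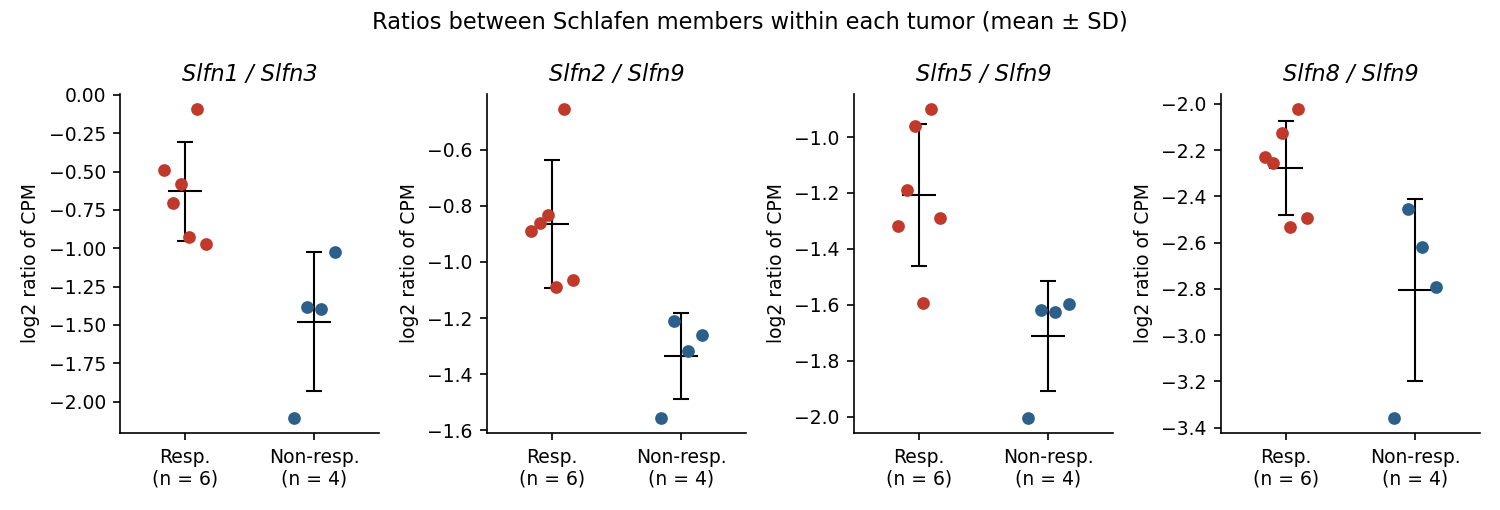
Log2 ratio of CPM between 2 members within each tumor, for Slfn1 over Slfn3, Slfn2 over Slfn9, Slfn5 over Slfn9 and Slfn8 over Slfn9, in 6 responders (red) and 4 non-responders (blue). Horizontal bars are means, whiskers are SD, and the vertical axes differ and do not start at 0. The groups are apart in the first 3 panels, narrowly for Slfn5 over Slfn9, and overlap in the fourth.

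Levels of different members can be compared only per length of RNA, so CPM was divided by the length of the exons of each gene. Slfn2 then led with 51.7 ± 12.1 CPM per kilobase (SD, n = 10 tumors), followed by Slfn9 with 29.3 ± 2.36, Slfn4 with 13.3 ± 5.82, Slfn5 with 10.7 ± 2.54, Slfn8 with 7.88 ± 2.06, Slfn3 with 4.36 ± 0.513 and Slfn1 with 4.24 ± 1.29. Slfn9, with the highest CPM, came after Slfn2 on this scale because its exons are 5965 bases long against 1664. Slfn2 exceeded Slfn9 in 10 of 10 tumors (difference 22.4 ± 11.3 CPM per kilobase), Slfn9 exceeded Slfn4 in 10 of 10 (15.98 ± 4.33) and Slfn5 exceeded Slfn8 in 10 of 10 (2.78 ± 1.0).

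The other neighbours in this order were less distinct. Slfn8 exceeded Slfn3 in 9 of 10 tumors (difference 3.51 ± 2.17 CPM per kilobase). Slfn4 exceeded Slfn5 in 7 of 10, with a difference of 2.66 ± 5.76, and Slfn3 exceeded Slfn1 in 6 of 10, with 0.121 ± 1.51. Both differences were smaller than their spread over tumors. The order of Slfn3 and Slfn1 was not the same in both groups. In responders the mean of Slfn1 was 5.05 ± 0.803 CPM per kilobase (SD, n = 6) and that of Slfn3 4.25 ± 0.482, with Slfn3 above Slfn1 in 2 of 6 tumors. In non-responders Slfn1 was at 3.03 ± 0.797 CPM per kilobase (SD, n = 4) and Slfn3 at 4.53 ± 0.581, with Slfn3 above Slfn1 in 4 of 4. The order of the means was the same with the length of the longest transcript, and Slfn1 and Slfn3 changed places in 3 of the 10 sets of 9 tumors.

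As a share of the summed per-kilobase level of the family, Slfn2 made up 36.5% to 50.2% and Slfn9 19.2% to 32.0% over the 10 tumors. The share of Slfn9 was 22.5% ± 2.33 (SD) over 6 responders and 27.8% ± 2.95 (SD) over 4 non-responders. Slfn4 ranged from 6.70% to 17.1%, and no other member exceeded 10.9% in any tumor. The shares add up to a whole, so a higher share of one member lowers the rest.

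**Figure D4:**
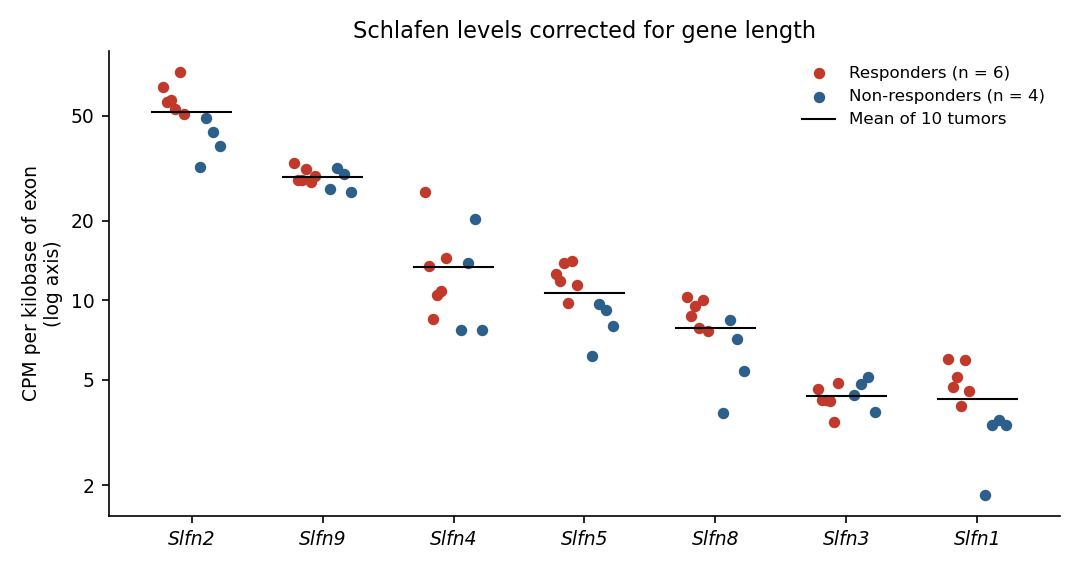
Level of each member in CPM per kilobase of exon on a log axis, in 6 responders (red) and 4 non-responders (blue), with the mean of 10 tumors as a bar. Members are ordered by their mean, from 51.7 for Slfn2 to 4.24 for Slfn1.

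Many Schlafen genes are expressed by leukocytes, and in a bulk tumor fewer cells of a type and less RNA per cell cannot be told apart. Ptprc, the pan-leukocyte marker CD45, was at 373.3, 365.7, 388.0, 326.2, 499.3 and 330.3 CPM in responders 1 to 6 and at 181.1, 307.4, 280.7 and 233.2 CPM in non-responders 1 to 4. As for Slfn2, responder 5 was highest, non-responder 1 lowest, and the groups did not overlap (log2 fold change 0.60, SE 0.15, edgeR adjusted p = 0.0413). Relative to Ptprc within each tumor, the mean log2 ratio in responders minus that in non-responders was -0.073 for Slfn2, -0.040 for Slfn5, -0.014 for Slfn8 and 0.14 for Slfn1. For Slfn4, Slfn9 and Slfn3 it was -0.42, -0.54 and -0.71. The first 4 members thus kept nearly the same mean ratio to Ptprc in both groups, and the mean ratio of the other 3 was lower in responders. For Slfn4 the ranges overlapped, at -3.53 to -1.87 in responders and -2.93 to -1.81 in non-responders, and for Slfn3 and Slfn9 they did not. Slfn3 and Slfn9 themselves differed little between the groups, so their lower ratio largely restates the difference in Ptprc.

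With the log2 CPM of Ptprc as a covariate in the edgeR fit, the log2 fold change was 0.062 (SE 0.072) for Slfn2, 0.088 (SE 0.093) for Slfn5, 0.16 (SE 0.19) for Slfn1 and -0.093 (SE 0.15) for Slfn8. With the mean of 9 macrophage markers as the covariate these were 0.048, 0.020, 0.083 and -0.063. No member passed in either fit, the smallest unadjusted p of a member being 0.364, and no gene of the 16041 passed either, with 845 and 969 at an unadjusted p under 0.05. No other tool was run with these covariates. Ptprc and the summed macrophage markers did not overlap between the groups, so leukocyte content and response cannot be told apart in these fits.

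Several marker lists of immune cells held genes that passed in the same direction as the members. For macrophages 6 of 9 markers passed higher in responders and the list summed to 3002 to 4438 CPM in responders and 2108 to 2825 CPM in non-responders, with no marker at 0. For inflammatory monocytes 1 of 5 tested passed (235.8 to 306.0 against 197.4 to 227.6 CPM), for T cells 2 of 9 (140.8 to 325.3 against 81.1 to 154.5 CPM) and for NK cells 2 of 5 (52.6 to 104.6 against 14.3 to 45.1 CPM). An unadjusted edgeR p under 0.05 was reached by 7 of 9 macrophage, 4 of 5 monocyte, 8 of 9 T cell and 5 of 5 NK cell markers. Of all genes tested, 29.1% reached it, and 4.71% passed by edgeR with responders higher. DESeq2 called 6, 3, 7 and 4 markers of these lists, and 2602 of all 16041 genes. The macrophage marker Mrc1 and the monocyte marker F13a1 had lower estimates in responders (log2 fold changes -0.13 and -0.047). B cell markers summed to at most 7.33 CPM in any tumor, with 0 of 3 past the threshold by edgeR, 1 at an unadjusted p under 0.05 and 1 called by DESeq2. Neutrophil markers summed to 75.1 to 154.3 against 59.3 to 125.7 CPM, with 0 of 5 past the threshold by edgeR, 1 at an unadjusted p under 0.05 (Csf3r) and 0 called by DESeq2. Of these cell types only macrophages had a covariate of their own, beside Ptprc for leukocytes as a whole. The part of each other cell type in the Schlafen differences was not tested.

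Among host tissues around the tumor, skeletal muscle markers passed in 2 of 5 (347.6 to 1122 CPM in responders against 307.9 to 401.7 in non-responders). Markers of adipocytes passed in 0 of 4 by edgeR, with 4 at an unadjusted p under 0.05 and 4 called by DESeq2 (15.6 to 52.1 against 8.54 to 19.2 CPM). Over all genes, 4.71% passed by edgeR with responders higher, 29.1% had an unadjusted p under 0.05 and DESeq2 called 2602 of 16041. Fibroblast (0 of 4), endothelial (0 of 4), skin keratinocyte (0 of 1) and erythroid (0 of 2) markers did not pass by edgeR or DESeq2, and 0 of them had an unadjusted p under 0.05. The part of muscle and fat in the Schlafen differences was not tested.

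The nearest profiles show which genes each member tracked over the 10 tumors. The measure is the mean absolute difference between 2 profiles of log2 CPM, each centred on its own mean, over 13256 named genes outside the family with a mean of at least 1 CPM. All genes share the same 10 libraries, so nearness is a description. For Slfn2 the nearest were Arl6ip1 at 0.048 and Tyrobp, a signalling adaptor of myeloid and NK cells, at 0.055, where the median gene was at 0.291. For Slfn5 they were Ikzf1, a transcription factor of blood cells, at 0.051 and Vav1, a guanine nucleotide exchange factor of blood cells, at 0.057, where the median gene was at 0.314. Ptprc itself was at 0.072 from Slfn2 and at 0.078 from Slfn5.

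Slfn1 was less closely matched, with Cyp4v3 at 0.084 and Rinl at 0.086 against a median of 0.388, and Ptprc was at 0.139. The genes nearest to Slfn8 were Samd9l, an interferon-induced gene, at 0.048 and 9930111J21Rik2 at 0.059, against a median of 0.344. Among the members, Slfn2 and Slfn5 lay nearest to each other at 0.090, and Slfn3 and Slfn9 were at 0.112.

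Slfn4 was closest to Trim30b at 0.141 and Ifit1bl2 at 0.182, against a median of 0.473, and was 0.368 or more from every other member. Like Slfn4, both were highest in responder 1 and then in non-responder 3. For Slfn9 the nearest were Rrm2b, a ribonucleotide reductase subunit, and Tut7, a terminal uridylyltransferase, at 0.040 and 0.041, and for Slfn3 they were P4ha1, a collagen prolyl hydroxylase, and Trps1, a GATA-type zinc finger factor, at 0.052 and 0.056. These small distances were set against medians of 0.142 and 0.173, because flat profiles lie near many genes.

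**Figure D5:**
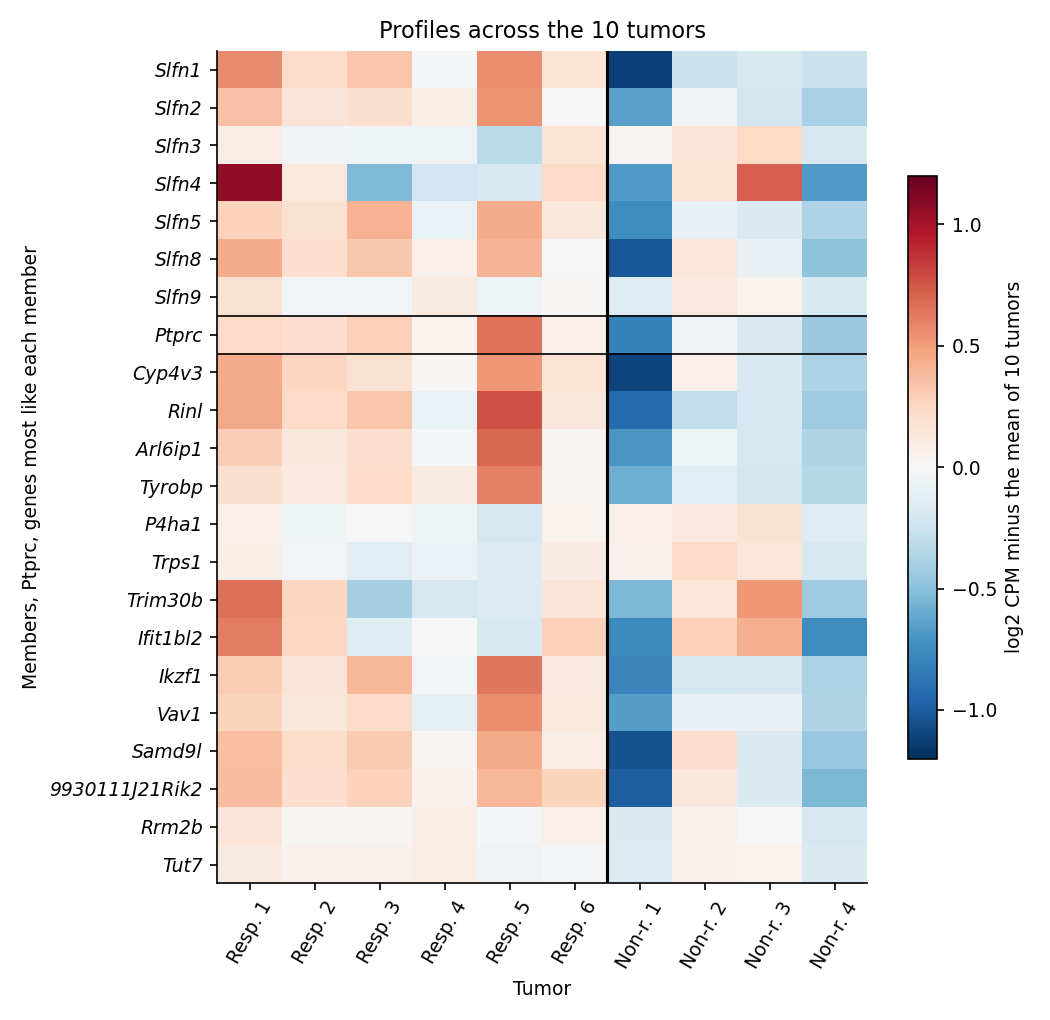
Log2 CPM of each gene in each tumor minus its mean over 10 tumors, for the 7 members, Ptprc and the 2 nearest genes of each member in the order of the members. Colors run from blue (below the mean) to red (above), and the vertical line divides 6 responders from 4 non-responders. Slfn1, Slfn2, Slfn5 and Slfn8 share their lowest value in non-responder 1, and Slfn4 peaks in responder 1 and non-responder 3.

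Other Schlafen genes gave little signal. Slfn10-ps, the pseudogene between Slfn8 and Slfn2, averaged 4.16 ± 0.446 CPM (SD) over 6 responders and 3.77 ± 1.38 CPM (SD) over 4 non-responders, and its log2 fold change was 0.15 with an SE of 0.21 (edgeR adjusted p = 0.680). Slfn14, which encodes a ribosome-associated endoribonuclease, had no count in any tumor, and Slfnl1 had 0 to 3 counts. Slfn5os was not analysed here.

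Of 30 interferon-induced genes, 30 had a higher estimate in responders, where 48.2% of all genes did, and the median log2 fold change was 0.57. Only 1 of the 30 passed by edgeR, Bst2, which encodes tetherin, a protein that holds budding viruses at the cell surface. Bst2 averaged 202.5 ± 12.7 CPM (SD) over 6 responders and 138.1 ± 33.6 CPM (SD) over 4 non-responders, and its log2 fold change was 0.55 with an SE of 0.13 (edgeR adjusted p = 0.0378). Another 22 had an unadjusted p under 0.05, and DESeq2 called 12. Of all genes tested, 8.06% passed by edgeR, 29.1% had an unadjusted p under 0.05 and DESeq2 called 2602 of 16041. The sum of the list was 2597 to 3450 CPM in responders and 1007 to 2906 CPM in non-responders, so that at least 1 non-responder lay among the responders, as for Slfn8.

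The interferon-induced genes next in order of p did not pass. Ifi44 had a log2 fold change of 0.81 (edgeR adjusted p = 0.0640), Oas2, a sensor enzyme for double-stranded RNA, 0.72 (edgeR adjusted p = 0.0661), and Irf7, the transcription factor that amplifies IFN production, 0.57 (edgeR adjusted p = 0.0693). Dhx58, which encodes the RNA sensor LGP2, was at 0.57 (edgeR adjusted p = 0.0781) and Cmpk2, a nucleotide kinase, at 0.63 (edgeR adjusted p = 0.0834). Ifnb1, the gene of IFN-beta, had 1 to 6 counts per tumor and was removed by the filter.

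Among 10 genes for interferon receptors and signal transducers, 0 passed by edgeR, 6 had an unadjusted p under 0.05 and DESeq2 called 3. Over all genes tested, 29.1% had an unadjusted p under 0.05 and DESeq2 called 2602 of 16041. The smallest p-values were those of Ifnar2, a subunit of the type I IFN receptor, at a log2 fold change of 0.28 (edgeR adjusted p = 0.0543) and Tyk2, a kinase bound to that receptor, at 0.21 (edgeR adjusted p = 0.0632).

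The 4 genes of transfer RNA cleavage and protection, the process in which Slfn2 acts, did not move together. Trdmt1, a transfer RNA cytosine methyltransferase, averaged 9.57 ± 0.761 CPM (SD) over 6 responders and 7.65 ± 0.446 CPM (SD) over 4 non-responders, with no overlap. Its log2 fold change was 0.32 with an SE of 0.081 (edgeR adjusted p = 0.0397). Nsun2, the other methyltransferase, had an estimate of the opposite sign at -0.14 (edgeR adjusted p = 0.0864), and its groups did not overlap either. Rnh1, the inhibitor of angiogenin, was at -0.064 (edgeR adjusted p = 0.371), and Ang, which encodes angiogenin, was at -0.056 with 18.1 to 41.3 counts per tumor (edgeR adjusted p = 0.895).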

How the data were processed

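Per the labels and the methods, the authors sequenced polyA RNA as paired 150-base reads, quantified transcripts with Kallisto on GRCm38 and summed them to genes. The deposited values are expected counts, fractional for 45.1% of values. The annotation release, summing option and strand setting are not given in the sources used here. The reference is of another mouse strain than BALB/c. The 9633 entries without a gene name held 1.04% to 1.23% of counts and stayed in the totals. No 2 libraries agreed within sampling noise (chi-square 10.8 to 120.5 per degree of freedom over 45 pairs). Per the methods, samples were biologically independent mice, and the experiment was done once.

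Counts were rounded, filtered with filterByExpr (minimum count 10, minimum total 15), normalized by TMM and tested with the two-sided quasi-likelihood test of edgeR 4.0.16 in R 4.3.3, with Benjamini-Hochberg adjustment over 16041 genes and a threshold of 0.05. DESeq2 1.42.0 and limma 3.58.1 (voom) were alternatives. The edgeR fit was also run on counts simulated with known changes, and the outcome of that run is not given here. Gene lengths, positions and shared 31-base words came from GENCODE vM21. The members and lists were chosen with earlier results of these data known, and the pair ratios and the letters CCAGGAAGT were added after seeing the values. The named genes are all members, other Schlafen genes, Ptprc, Ifnb1, the 6 interferon-induced genes and 2 receptor or transducer genes with the smallest p, the 4 transfer RNA genes and the 2 nearest profiles per member. The markers named singly were chosen after their values were seen.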

Additional observations from a re-analysis of the deposited data

Results flagged for a closer look

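Each of the 7 members, and the pseudogene Slfn10-ps, was examined in each group for a tumor far from the others, which makes 16 groups of values. Slfn1 in non-responder 1, at 3.43 CPM, lay below the other 3 non-responders at 6.27 to 6.59 CPM by a gap of 0.899 of the range of the group, above the critical value of 0.829. Slfn4 in responder 1, at 102.2 CPM, lay above the other 5 responders at 33.8 to 57.5 CPM by a gap of 0.654 of the range, above the critical value of 0.625. Chance alone gives about 1 such value in 20 groups, or 0.8 in 16.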

How the results depend on the processing

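No paired analysis was possible because the labels give no replicate numbers that tumors of the 2 groups share. Slfn1, Slfn2 and Slfn5 passed in all 7 alternatives of scaling, tool, filter, depth and unnamed genes, and Slfn8 in 1 of them (DESeq2). With the Ptprc or the macrophage covariate, 0 members, 0 genes, 0 interferon-induced genes and 0 transfer RNA genes passed by edgeR, and the estimates changed sign for Slfn4 (-0.26 and -0.13), for Slfn8 (-0.093 and -0.063) and, with Ptprc, for Slfn9 (-0.0060). Slfn4 ranged from -0.092 (without responder 1) to 0.52 when 1 tumor was left out. DESeq2 called 2602 genes against 1293 by edgeR, 12 of the interferon-induced genes against 1, 3 receptor or transducer genes against 0 and 2 transfer RNA genes against 1. No filter on low counts gave 931 genes in all and 0 transfer RNA genes, and thinning all libraries to the shallowest gave 1 receptor or transducer gene and 0 transfer RNA genes. With unnamed genes left out, 58.8% of calls were higher in responders, against 58.5%, and with thinned counts 68.6%. Leaving out 1 tumor gave 0 to 1897 genes, 0 to 4 members, 0 to 14 interferon-induced genes, 0 to 3 receptor or transducer genes and 0 to 1 transfer RNA genes. The count of genes fell to 0 without non-responder 4 (4106 at an unadjusted p under 0.05), to 16 without non-responder 1 and to 17 without responder 3, and rose to 1897 without non-responder 2. The level of Slfn3 was 5.25 CPM per kilobase by its longest transcript against 4.36. Summed before the comparison, Slfn8 and Slfn9 gave a log2 fold change of 0.14 and Slfn3 and Slfn4 gave 0.12. The cause of these changes was not tested. The number of tumors limits the precision of every value, and for Slfn1, Slfnl1 and Ifnb1 so does depth.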
